A study of Homo sapiens with 8 samples.

Results

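TAZ binding was compared between 24 h and 48 h of TAZ-4SA expression in MCF10A, an immortalised but non-tumorigenic line of human breast epithelium. The 2 peak lists held 14236 of the 55334 peaks in the 4 lists of the series, 2469 at 24 h and 11767 at 48 h. A 48 h peak that overlapped a 24 h peak by at least 1 bp was called kept, and a 48 h peak without such an overlap was called new. A 24 h peak without an overlap at 48 h was called not called again. By this rule 9501 of the 48 h peaks were new (80.7%, exact binomial 95% interval 80 to 81.5%) and 2266 were kept (19.3%). Of the 24 h peaks, 2280 were kept (92.3%) and 189 were not called again (7.65%, 6.64 to 8.77%).

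All cells were MCF10A transduced with a tetracycline-inducible TAZ-4SA, a constitutively active form of TAZ, and the groups differ in doxycycline (Dox), which was left out or given at 0.05 µg/ml, with harvest after 24 h, after 48 h or after 72 h. Each condition had 1 anti-TAZ ChIP library and 1 IgG library, 8 libraries in all, and only the 4 TAZ peak lists are analysed here. The antibody is against TAZ and the labels do not say that it tells the transgene product from the cell's own TAZ. With 1 library per time no difference between times can be tested, and the intervals given below cover counting error over peaks only. In chromatin pooled from many cells, more cells with TAZ at a site and more TAZ at that site in each cell cannot be told apart.

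TAZ, encoded by WWTR1, and its paralog YAP1 are the transcription coactivators at the end of the Hippo pathway, in which the LATS kinases phosphorylate both proteins and keep them out of the nucleus. TAZ has no DNA-binding domain and reaches DNA mainly through the TEAD factors, often at distal enhancers that also hold AP-1 (JUN and FOS family) sites. Target genes such as CCN1, CCN2 and ANKRD1 act in cell growth, matrix and cytoskeleton, and several targets, LATS2 and AMOTL2 among them, feed back on the pathway.

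Sequences are shown to let the TEAD sites under strong new and kept peaks be compared. First come 5 of the new peaks of highest fold enrichment in introns or intergenic sequence with a TEAD consensus (ACATTCC or GCATTCC, either strand) within 100 bp of the summit. The 81 bases around the match nearest the summit are given on the plus strand of hg38, with each TEAD consensus in capitals. They lie at chr2:65659030-65659110 (nearest protein-coding gene SPRED2), chr9:83432460-83432540 (an intron of FRMD3), chr10:124906701-124906781 (ZRANB1), chr2:28596842-28596922 (an intron of PLB1) and chr7:47605097-47605177 (TNS3).
SPRED2: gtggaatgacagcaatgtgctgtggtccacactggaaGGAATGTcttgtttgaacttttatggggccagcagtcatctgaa
FRMD3: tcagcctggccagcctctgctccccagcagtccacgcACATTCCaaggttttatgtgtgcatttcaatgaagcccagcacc
ZRANB1: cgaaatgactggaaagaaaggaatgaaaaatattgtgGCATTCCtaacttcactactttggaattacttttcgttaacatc
PLB1: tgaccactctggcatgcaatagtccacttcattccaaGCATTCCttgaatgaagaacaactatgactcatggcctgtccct
TNS3: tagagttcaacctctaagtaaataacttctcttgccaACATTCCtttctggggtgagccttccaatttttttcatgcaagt

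Fold enrichment at these 5 summits was 24.3, 23.4, 22.5, 22.5 and 21.1 at 48 h, in the order printed, and none had a 24 h peak. PLB1 and TNS3 had peaks without Dox, with fold enrichment 10.3 and 4.74, where the median of that list was 5.57. All 5 were called at 72 h, with fold enrichment from 22.2 at ZRANB1 to 50.3 at FRMD3.

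For contrast, the 3 kept sites of highest fold enrichment at 48 h under the same conditions lie at chr10:105585896-105585976 (SORCS3), chr4:101954045-101954125 (an intron of BANK1) and chr3:76497829-76497909 (an intron of ROBO2).
SORCS3: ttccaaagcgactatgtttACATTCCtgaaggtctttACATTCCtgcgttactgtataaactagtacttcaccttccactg
BANK1: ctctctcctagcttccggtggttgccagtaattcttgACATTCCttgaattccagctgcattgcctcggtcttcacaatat
ROBO2: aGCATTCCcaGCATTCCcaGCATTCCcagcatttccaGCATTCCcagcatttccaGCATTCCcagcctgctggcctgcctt

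SORCS3 held 2 copies of the consensus in this window and ROBO2 held 5 in a tandem repeat. Fold enrichment at 24 h and 48 h was 21.5 and 47.4 at SORCS3, 12.2 and 43.3 at BANK1, and 30.6 and 43 at ROBO2. All 3 were higher at 72 h, with 70.3, 46.4 and 70, and none was called without Dox.

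New peaks were weaker than kept peaks, although many reached the level of kept sites. Fold enrichment is the MACS2 value at the summit, that is the pileup of fragments over the local background with a pseudocount of 1 in each. Its median was 6.08 (95% interval of the median 6.01 to 6.13) over new peaks and 11.6 (11.4 to 11.8) over kept peaks of the 48 h list, a ratio of 0.524. In the 24 h list the median was 7.66 (7.52 to 7.84) over kept peaks and 5.71 (5.38 to 5.98) over peaks not called again, a ratio of 0.745. These values come from the lists that define the classes and are given as a description. New peaks were also narrower, with a median width of 574 bp against 876 bp for kept peaks of the same list. The share of new peaks was 95.3% in the weakest 10% of the 48 h list by fold enrichment and 25.9% in the strongest 10% (304 of 1176 peaks). The latter group began at a fold enrichment of 13.3, so some of the highest 48 h sites had no 24 h peak.

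**Figure D1:**
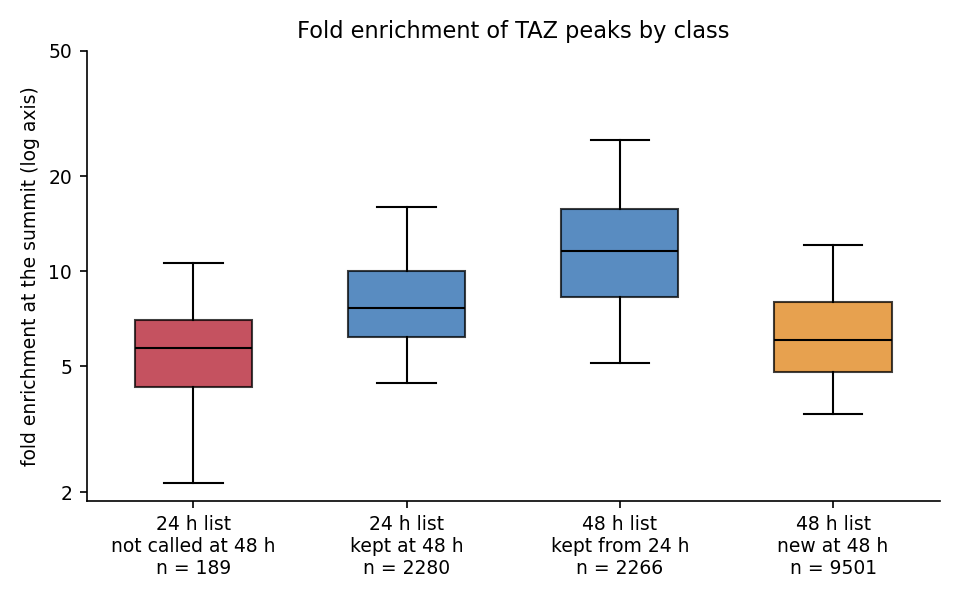
Fold enrichment at the summit (log axis) of 24 h peaks not called at 48 h, 24 h peaks kept at 48 h, 48 h peaks kept from 24 h and 48 h peaks new at 48 h. Boxes give the quartiles with the median as a line, and whiskers reach the 5th and 95th percentiles. Medians are 5.71, 7.66, 11.6 and 6.08, so the kept sites stand above both other classes and are higher at 48 h than at 24 h.

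The number of peaks not called again depended on the overlap rule. It was 189 with an overlap of at least 1 bp, 291 when summits had to lie within 200 bp of each other, and 1296 when 50% of both intervals had to overlap. With the 1 bp rule the smallest overlap of a kept 48 h peak was 122 bp and the median was 408 bp, while the nearest new peak lay 333 bp from the edge of a 24 h peak and 59 new peaks lay within 1000 bp of one. A total of 14 wide 48 h peaks covered 2 neighbouring 24 h peaks each.

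Background coverage differed between the lists, while sequencing depth itself was not measured. The lowest background coverage, solved from the fold enrichment and p-value of each peak, was 1.42 fragments at 24 h and 2.84 at 48 h, a ratio of 2.01, and the lowest −log10 p in the lists was 5.27 at 24 h and 4.52 at 48 h. When pileup and background of each 48 h peak were scaled down to the 24 h coverage and held to the 24 h threshold, 8356 of the 9501 new peaks still passed (87.9%, 87.3 to 88.6%) and 2245 of the 2266 kept peaks did (99.1%). The scaling treats each peak on its own and does not undo sampling noise in the 24 h list.

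At the kept sites themselves the fold enrichment was mostly higher at 48 h. The median ratio of 48 h to 24 h over the 2280 kept 24 h peaks was 1.45 (1.42 to 1.47), and 1907 sites were higher at 48 h (83.6%). At 1059 sites the value was at least 1.5 times higher (46.4%) and at 51 sites at least 1.5 times lower (2.24%). These values include the pseudocount, and without it the median ratio was 1.21. The ratio has the 24 h value as its divisor, and its median was 1.65 in the weakest 10% of sites at 24 h and 1.28 in the strongest 10%. It also differed by base composition, from 1.53 (1.47 to 1.57) at sites with under 40% GC to 1.27 (1.15 to 1.33) at sites with 60% GC or more within 100 bp of the summit. Sites with an AP-1 consensus had a ratio of 1.36 (1.3 to 1.43) and sites without one 1.47 (1.44 to 1.5), whereas the intervals of sites with no TEAD consensus (1.45, 1.41 to 1.49) and with 2 or more (1.49, 1.42 to 1.55) overlapped. Without the pseudocount the median ratio was 1.27 at sites under 40% GC and 1.08 at those of 60% or more. It was then 1.13 with an AP-1 consensus and 1.23 without one. Over the kept sites the fold enrichments at both times had a Spearman coefficient of 0.607 (n = 2280 sites of the same 2 libraries).

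The 10 largest ratios included sites assigned to RBMS3, SLCO2A1, CUL4B, BNIP2 (139200 bp from the TSS), TIPRL, NCALD, KPNA3, ANKRD1 and LEP. RBMS3, which encodes an RNA-binding protein, went from 4.37 at 24 h to 27.1 at 48 h and 45.1 at 72 h, a ratio of 6.2 between the first 2 times, in an intron 3252 bp from a transcription start site (TSS). ANKRD1, an ankyrin repeat protein and textbook YAP/TAZ target, went from 8.75 to 34.9 and 43.4 at a site 10162 bp upstream of its start. Of these 10 sites 7 held a TEAD consensus, 9 were intronic or intergenic, 1 was called without Dox, and 7 were higher still at 72 h.

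The lowest ratios included strong promoter sites of the cells without Dox. NDUFS7, a subunit of mitochondrial complex I, had a fold enrichment of 40.5 in cells without Dox, then 10.1 at 24 h, 2.94 at 48 h, then 16.8 at 72 h. RTTN, a centriole protein, had 35.9, 13.3, 4.01 and 22.9, and the kinase gene DSTYK had 24.8, 8.62, 3.05 and 26.7. All 3 peaks lay 10 to 53 bp from a TSS in sequence of 61.7 to 68.2% GC, without a TEAD or AP-1 consensus. The other 7 of the 10 lowest sites, among them BBS9, TFAM and PFN4, had no peak without Dox and a GC content of 37.3 to 52.2%. All 10 were higher at 72 h than at 48 h.

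The promoter, intron and intergenic shares of new peaks were close to those of kept peaks, and new peaks were poorer in GC. A promoter was taken as 3 kb to either side of a TSS of any annotated transcript (GENCODE). On the assembled chromosomes 2448 of 9489 new peaks were in promoters (25.8%, 24.9 to 26.7%), 4222 in introns (44.5%), 2611 in intergenic sequence (27.5%) and 208 in exons (2.19%). The shares of the 2251 kept peaks were 26.9% (25.1 to 28.8%), 43.2%, 27.6% and 2.22%, so the intervals of both classes overlapped for promoters. The median distance to the nearest protein-coding TSS was 22005 bp for new and 24287 bp for kept peaks, and GC medians were 43.3% and 43.8%. Peaks with under 40% GC made up 35.1% (34.1 to 36%) of new and 30.7% (28.8 to 32.7%) of kept peaks, and those with 60% or more 5.52% (5.07 to 6%) and 7.11% (6.08 to 8.25%). New peaks spread over every chromosome, at 2.58 to 4.5 per Mb on the autosomes and 1.31 per Mb on X, with 3.35 to 5.58 new peaks for each kept peak on the autosomes.

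The 189 peaks not called again differed in kind. Of the 183 on the assembled chromosomes, 102 were promoter peaks (55.7%, 48.2 to 63.1%) and 90 lay within 1000 bp of a TSS (49.2%), against 302 of 2264 for kept 24 h peaks (13.3%). Their median GC content was 51.2%, against 44.3% for kept 24 h peaks. By GC content, 5.49% of the 24 h peaks under 40% GC were not called again, 4.5% of those of 40 to 50%, 7.58% of those of 50 to 60% and 27.7% (21.9 to 34.1%, 61 of 220) of those of 60% or more. Promoters held most of the high-GC cases: 58 of 161 peaks with 60% GC or more were not called again (36%, 28.6 to 44%), against 3 of 57 intronic or intergenic peaks of that GC content (5.26%, 1.1 to 14.6%). Among the stronger 24 h peaks, those with a fold enrichment of at least 7.48, the shares from the lowest to the highest GC group were 0.554% (2 of 361), 0.777%, 3.32% and 15.4% (18 of 117). In both sets the highest GC group stood apart, while the 2 lowest groups had overlapping intervals and changed places. These GC groups were formed after the values had been seen.

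**Figure D2:**
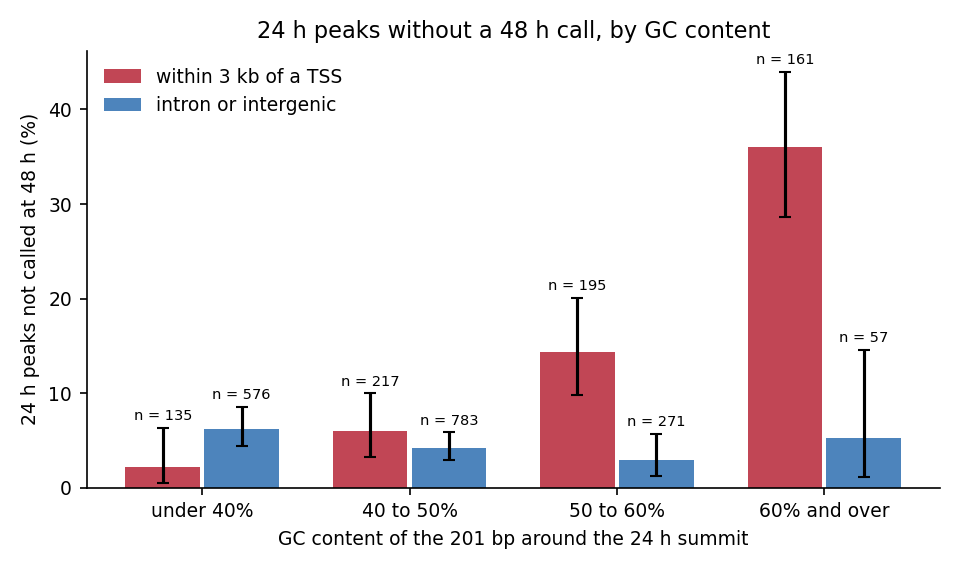
Share of 24 h peaks not called at 48 h (%, bars from 0) by GC content within 100 bp of the summit, for peaks within 3 kb of a TSS and for intronic or intergenic peaks. Error bars are exact binomial 95% intervals and n is the number of 24 h peaks in each group. Promoter peaks of 60% GC or more stand at 36%, and intronic or intergenic peaks stay between 2.95% and 6.25% in all 4 GC groups.

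Most of these sites were present in the other lists, which the class rule did not use. Of the 189, 56 were called without Dox (29.6%) with a median fold enrichment of 13.9 there, and 147 were called at 72 h (77.8%). All 58 high-GC promoter peaks were called at 72 h and 35 of them without Dox. The background coverage at 72 h was 2.01 fragments, between that of the 24 h and the 48 h library. Whether base composition affected recovery in the 48 h library was not tested.

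TEAD4, which encodes one of the 4 TEAD factors that carry TAZ to DNA, was among these promoters. Its peak, at chr12:2959260-2959608 and 4 bp from the TSS, had a fold enrichment of 16.1 at 24 h, was not called at 48 h, and reached 48 at 72 h. The peak had 78.1% GC and 1 TEAD consensus and no counterpart without Dox. TEAD1, in contrast, kept its promoter peak, with 6.76 in cells without Dox and 20.1, 26.4 and 88.6 at the successive times.

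The 15 strongest peaks not called again were assigned to IFTAP, TOR1AIP1, TEAD4, ARHGAP1, VPS51, MDH1, PRKCB, AKAP13, KMT2A, PGK1, ST3GAL2, B4GALT7, NELFA, GSPT1 and EXD2. Of these, 13 lay within 200 bp of a protein-coding TSS, 2 held a TEAD consensus, none held an AP-1 consensus, and their GC content ran from 46.8 to 83.1%. All 15 were called at 72 h with a higher fold enrichment than at 24 h, and 9 were called without Dox. PGK1, a glycolytic enzyme, had 7.55 in cells without Dox, then 10.9 at 24 h and 14.2 at 72 h, and MDH1, the cytosolic malate dehydrogenase, had 13.5, 12.6 and 32.9. VPS51, a vesicle tethering subunit, had 31.1, 13 and 25.5.

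The lists at 72 h and without Dox were not used to define new peaks. At 72 h 8991 of the 9501 new peaks were called (94.6%, 94.2 to 95.1%), while 72 h peaks covered 1.27% of the sequenced bases of the genome. Their median fold enrichment at 72 h was 11.9, which is near the 11.6 that kept peaks had at 48 h, and the median ratio of 72 h to 48 h was 1.88. Kept peaks were called at 72 h in 98.3% of cases with a median of 23 and a median ratio of 1.96. The values at both times include the pseudocount, with a background coverage of 2.01 fragments at 72 h and 2.84 at 48 h. No ratio without the pseudocount is given for 72 h. Without Dox, 338 new peaks had been called (3.56%, 3.19 to 3.95%) against 438 kept 48 h peaks (19.3%, 17.7 to 21%). The share called at 72 h was 89.1% in the weakest 20% of new peaks and 99.3% in the strongest 20%.

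The 510 new peaks that were not called at 72 h were weak and rich in A and T. Their median fold enrichment was 4.78 (6.16 for the others) and their median GC content 35.8% (43.3% for the others). New peaks with under 40% GC were called at 72 h in 89% of cases and those with 60% or more in 99.8%. The strongest of the 510 were assigned to COL5A2 (fold enrichment 14.1), NAALADL2 (13), FAT4 (12.5), LRRC7 (10.9) and UBE2E3 (10.7). All lay in intronic or intergenic sequence with 24.4 to 32.3% GC, from 51269 bp (COL5A2) to 258832 bp (FAT4) from the TSS. The part of base composition in this was not tested.

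A new peak was found more often near a 24 h peak than the genome at large. Of the 9489 new summits, 695 lay within 10 kb of a 24 h summit (7.32%, 6.81 to 7.87%), while 1.58% of the genome lay that near, a ratio of 4.63. With 50% of both intervals required to overlap, a rule that turns some overlapping peaks into new ones, the share was 16.9%. With the 1 bp rule the ratio was 2.94 within 50 kb and 2.37 within 100 kb, where 2990 new summits lay (31.5%). The peaks without Dox, whose list is of like size, served for comparison. Among new peaks that overlapped no peak without Dox, 7.26% lay within 10 kb of a 24 h summit and 4.18% within 10 kb of a summit without Dox, or 4.59 and 2.64 times the share of the genome. Over all new peaks, including those called without Dox, 7.59% lay within 10 kb of a summit without Dox, 4.79 times the share of the genome. Of these 720 summits, 350 lay within 1 kb, a range that the class rule mostly closes for the 24 h list alone. From 1 to 10 kb the shares were 7.22% for the 24 h list and 3.9% for the list without Dox. That is 5.1 and 2.75 times the share of the genome. Over all new peaks the median distance of a summit to the nearest earlier summit was 244 kb for the 24 h list and 331 kb for the list without Dox. Only 10 new summits were within 1 kb of a 24 h summit, a range that the overlap rule mostly assigns to kept peaks.

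**Figure D3:**
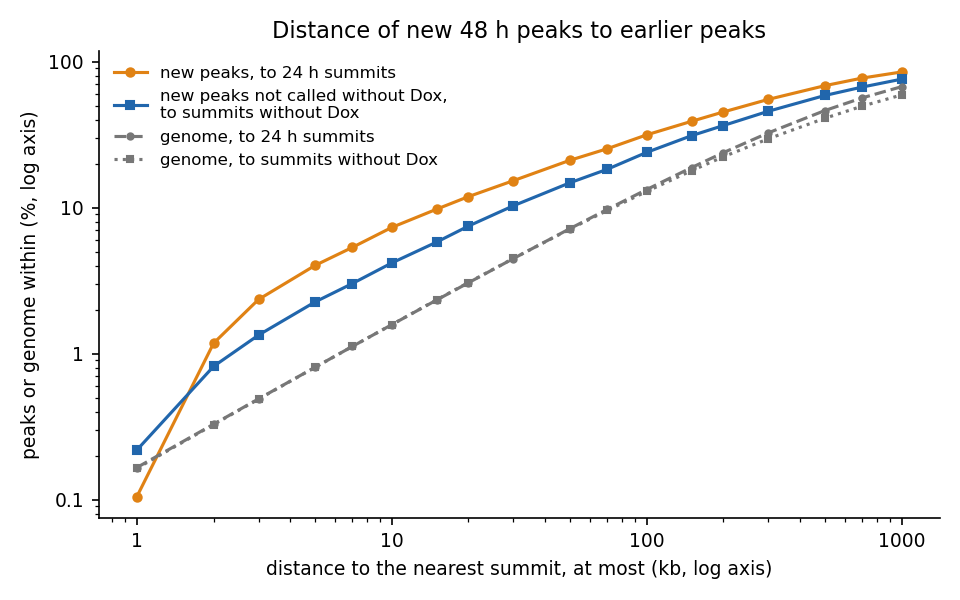
Share of new 48 h peaks, and of the genome, within a given distance (kb, log axis) of the nearest 24 h summit or the nearest summit without Dox (%, log axis). For the latter, only new peaks that overlap no peak without Dox are counted. At 10 kb the shares are 7.32% of new peaks for the 24 h summits and 4.18% for the summits without Dox, against 1.58% of the genome for either list.

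Seen from the 24 h sites, 610 of 2447 peaks had a new peak within 10 kb (24.9%) and 1385 within 50 kb (56.6%). The share within 10 kb was 24.5% (20.7 to 28.6%) for the weakest 20% of 24 h peaks and 22.4% (18.8 to 26.3%) for the strongest 20%, and 27% for promoter and 24.2% for intronic or intergenic peaks. The median gap between neighbouring summits went from 212 kb in the 24 h list to 31 kb in the 48 h list, and among new summits alone it was 44.1 kb. The 24 h peaks with most new peaks within 50 kb were assigned to CAMK1G (8 new peaks), PGRMC2 (7) and ERRFI1 (7). BCL10, DUSP1, GNG12, F3 and PTPN1 followed with 6 each. The peak assigned to CAMK1G with 8 new peaks lay 195658 bp from the TSS. ERRFI1 encodes a feedback inhibitor of EGFR and DUSP1 a MAP kinase phosphatase. The kept peak near DUSP1, in promoter sequence of 63.2% GC, had a fold enrichment of 7.79 in cells without Dox and of 8.78, 11.9 and 39.3 at the successive times.

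New peaks near a 24 h peak were somewhat weaker and more often in promoters than those far from one. Median fold enrichment was 5.67 (5.45 to 5.99) under 5 kb and 6.23 (6.14 to 6.32) beyond 500 kb. The TEAD consensus was in 35.7% (30.9 to 40.7%) of the former and 41.1% (39.4 to 42.9%) of the latter, the AP-1 consensus in 19.7% and 21.7%, and promoters held 31.5% (26.9 to 36.4%) and 23.2% (21.7 to 24.8%). At 5 to 50 kb the TEAD share was 35.7% (33.4 to 38.1%), below that beyond 500 kb.

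The TEAD consensus was the commonest of the 15 searched motifs near the summits of both classes, and it was less frequent in new peaks. It was within 100 bp of the summit in 3706 new peaks (39%, 38 to 40%) and 1218 kept peaks (53.8%, 51.7 to 55.8%), against 5.52% of 146857 windows of the same length spaced every 20 kb over the genome. In windows of the same length 1 kb to either side of the summits the shares were 5.38% and 6.42%. At 24 h peaks not called again it was 29.1% (22.7 to 36.1%). Kept peaks more often held 2 or more copies, with 10.9% holding 2 and 2.6% holding 3 or more, against 5.59% and 0.674% of new peaks. The nearest match lay at a median of 29 bp from the summit in new and 21 bp in kept peaks.

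The AP-1 consensus (TGACTCA or TGAGTCA) was in 20.2% (19.4 to 21%) of new and 18.5% (17 to 20.2%) of kept peaks, against 3.03% of the genome windows. Peaks with an AP-1 but no TEAD consensus made up 14% (13.3 to 14.7%) of new peaks and 9.62% (8.44 to 10.9%) of kept peaks. From the weakest to the strongest 20% of new peaks, the TEAD share was 28.5%, 35%, 39.8%, 44.2% and 47.5%, and the AP-1 share 21%, 22.3%, 22%, 20.5% and 15.3%. In kept peaks TEAD was in 45.2%, 50.6%, 52.8%, 56.1% and 64.2%, and AP-1 in 20%, 25.2%, 19.9%, 15% and 12.6%. The TEAD share was thus higher in each stronger group, and the AP-1 share was lowest in the strongest group of either class. Among peaks of like strength, the weakest 20% of kept peaks (median fold enrichment 6.19) held TEAD in 45.2% (40.5 to 49.9%) and the middle 20% of new peaks (6.08) in 39.8% (37.6 to 42.1%). The middle 20% of kept peaks (11.6) held it in 52.8% (48 to 57.4%) and the strongest 20% of new peaks (10.4) in 47.5% (45.3 to 49.8%). In both pairs the share was higher in kept peaks and the intervals overlapped, which does not show that the shares are equal. The pairs were matched on the median alone. Fold enrichment ran from 1.12 to 7.54 in the weakest 20% of kept peaks and from 5.52 to 6.69 in the middle 20% of new peaks. For AP-1 the pair of stronger groups had 19.9% (16.3 to 23.8%) in kept and 15.3% (13.7 to 17%) in new peaks. The pair of weaker groups went the other way, with 20% (16.5 to 24%) in kept and 22% (20.2 to 23.9%) in new peaks.

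**Figure D4:**
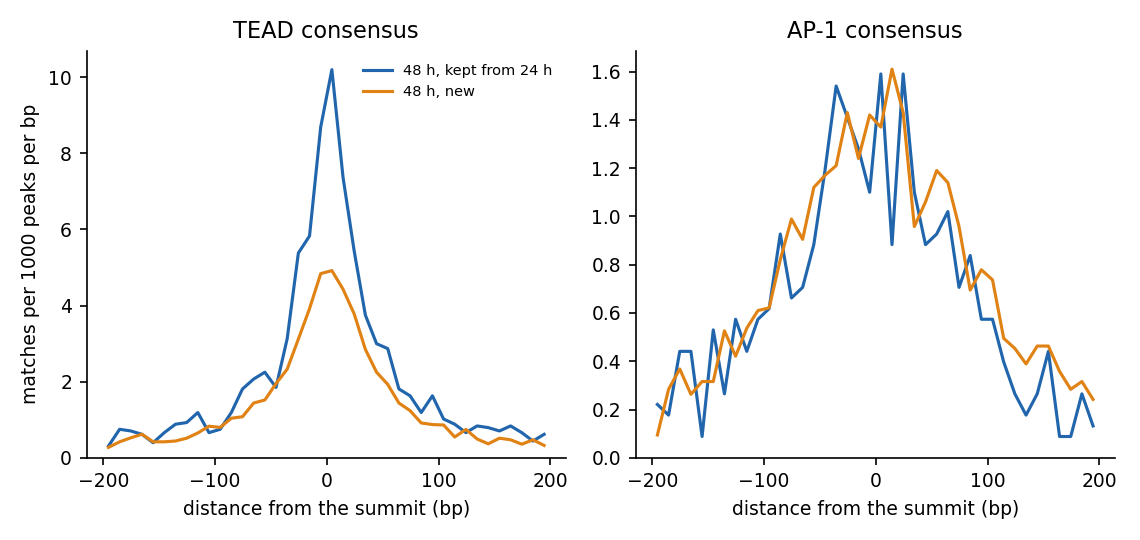
Matches to the TEAD and the AP-1 consensus per 1000 peaks and per bp, by distance from the summit (bp, bins of 10 bp), in 48 h peaks kept from 24 h and new at 48 h. The vertical scales of the 2 panels differ. In the bin from 0 to 9 bp there are 10.2 TEAD matches in kept and 4.92 in new peaks, and AP-1 matches form a broader and lower mound in both.

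Among the other motifs, the RUNX motif TGTGGTT was in 10.9% of new and 11.6% of kept peaks against 3.7% of genome windows. STAT (TTCCNGGAA) was in 2.15% and 3.05% against 0.45%, and C/EBP (TTGCGCAA or TTGCACAA) in 2.74% and 2.91% against 0.706%. NFY (4.28%, 4.15%, genome 4.36%), the SNAI/ZEB E-box CAGGTG (13.7%, 13.9%, genome 14.4%) and the GATA motif AGATAA (12.5%, 10.7%, genome 14.6%) were at or below the level of the genome in both. The 24 h peaks not called again held the ETS motif CCGGAAG in 11.1% (7.01 to 16.5%) and the SP/KLF motif GGGCGG in 21.7% (16 to 28.3%), against 1.02% and 5.67% of new peaks, and YY1 (AAGATGGCG) in 5 of 189 peaks against 8 of 9501 new peaks. ETS, SP/KLF and YY1 sites are common in CpG-rich promoters of widely expressed genes. A match is a description of the sequence and says nothing of which factor was bound.

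Many peaks without the TEAD core CATTCC held a form that differs from it in 1 letter. All 18 such changes were counted within 50 bp of the summit in peaks without the core within 100 bp, and the 3 with the largest ratio to windows 1 kb away in new peaks were then pooled, a choice made after the values had been seen. AATTCC was in 25.6% of such new peaks (5.81% of windows 1 kb away) and 31.5% of such kept peaks. CATACC was in 10.1% (2.64%) and 14.6%, and GATTCC in 8.48% (3.31%) and 10.5%. CATTCT, which was not pooled, was in 20.3% (8.27%) and 28.4%, at 2.45 times the level 1 kb away in new and 3.38 times in kept peaks, where GATTCC was at 2.49 times. Changes of letters 2 and 3 of the core were at 0.891 to 1.82 times the level 1 kb away in either class. Counting in this order, 47.8% of new peaks held the core, a further 29.2% a variant, 5.95% only an AP-1 consensus and 17% none of these. The last share depends on which variants are counted. More peaks held a variant in this pooled count than the single counts can add up to. The pooled count thus took a window wider than 50 bp, and its shares are not comparable with those of single variants. In kept peaks the shares were 61.4%, 25.5%, 2.98% and 10.1%. Of the new peaks without the core, 56% held a variant in the pooled count, against 21.6% of windows 1 kb away. For kept peaks without the core the shares were 66.1% and 23.1%. New peaks with a variant in place of the core had a median fold enrichment of 6.08 (5.97 to 6.17), between the 6.41 of peaks with the core and the 5.38 of peaks with none.

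The 3 strongest new intronic or intergenic peaks with a variant and no core within 100 bp of the summit, chosen after the values had been seen, are printed to show these forms, with the variant in capitals, 81 bases on the plus strand of hg38. They lie at chr10:72080722-72080802 (an intron of SPOCK2), chr3:36496886-36496966 (an intron of STAC) and chr2:220275586-220275666 (nearest protein-coding gene SLC4A3).
SPOCK2: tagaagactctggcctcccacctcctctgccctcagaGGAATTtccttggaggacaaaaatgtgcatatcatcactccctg
STAC: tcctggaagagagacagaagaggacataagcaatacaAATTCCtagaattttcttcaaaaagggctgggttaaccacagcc
SLC4A3: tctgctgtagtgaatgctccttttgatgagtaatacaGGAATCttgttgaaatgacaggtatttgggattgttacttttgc

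SPOCK2, which encodes a matrix proteoglycan, had a fold enrichment of 23.9 at 48 h and 63.5 at 72 h at this site. STAC had 21.3 and 21.2, and the site assigned to SLC4A3, 642279 bp from its TSS, had 19.9 and 38.2. None of the 3 was called at 24 h or without Dox.

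The 20 strongest new peaks ran from a fold enrichment of 21.1 to 32.3. The strongest, 83470 bp from the TSS of EXOC4, lay in ST13P7, a processed pseudogene of ST13, at chr7:133168967-133170040. A peak in NT5C2 lay in ST13P13, with a fold enrichment of 28.2, and the peak assigned to NUAK1 lay in ST13P3, with 22.2. ST13 encodes an HSP70-interacting protein, and processed pseudogenes are copies of a spliced mRNA placed elsewhere in the genome. Of the 17 annotated ST13 pseudogenes, 5 held a 24 h peak and 10 a 48 h peak, of which 5 were new, the other 2 being ST13P12 (10.1) and ST13P18 (7.81). The 5 with a 24 h peak all kept it, with fold enrichment 13.2 to 39.1 at ST13P21 and 36.1 to 86.3 at ST13P19 from 24 h to 48 h, and ST13 itself had 34.4 and 50.6. Reads from such near-identical copies can be placed at the wrong copy, so the fold enrichment at any one of them is uncertain.

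The remaining 17 of these peaks included ITGA1 and SH3PXD2A. ITGA1, the collagen-binding integrin alpha-1 chain, had a promoter peak 107 bp from the TSS with 24.5 at 48 h and 11.6 at 72 h, without a TEAD or AP-1 consensus within 100 bp of the summit. SH3PXD2A, a scaffold of invadopodia also called TKS5, had a peak 1910 bp inside the gene with 6.87 without Dox, no call at 24 h, 23.6 at 48 h and 54.2 at 72 h. C2CD3, a centriole protein, had 30.2 at 48 h and 43.7 at 72 h over 6 TEAD matches. TMEM120B had 21.2 at 48 h and 87.3 at 72 h. The others were assigned to SPRED2, SPOCK2, CCDC148, FRMD3, SRGAP1, ZRANB1, PLB1, LYZL1, MYPN, GLCCI1, STAC, EDIL3 and TNS3. Of all 20, 11 held a TEAD consensus and 1 an AP-1 consensus, 11 were intronic or intergenic, 4 were called without Dox, and all were called at 72 h, 16 of them at a higher value.

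Strong new promoter peaks, counted within 3 kb of a protein-coding TSS, were led by ITGA1, SH3PXD2A, MYPN (21.9), TMEM120B, ATP13A2 (19.4), ANKRD1 (19.2), TTC12 (18.6), PHLDB1 (18.3), SEMA5A (18.3) and RAPGEF3 (18.1). Among new peaks that had been called without Dox, so that the 24 h list alone lacked them, SH3PXD2A, SRGAP1 (7.66 without Dox, 22.8 at 48 h), PLB1, TNS3 and ANKRD1 (5.22 and 19.2) were the strongest, followed by ADK, ESR1, HDAC4, SLC22A5 and IL1RAP with 16.6 to 18.7 at 48 h.

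The expansion reached many more genes. With each peak within 100 kb given to the protein-coding gene of nearest TSS, 1558 of 20007 genes had a 24 h peak (7.79%) and 4473 had a new peak (22.4%). Of the genes with a new peak, 3536 had no 24 h peak (79.1%), and 5424 of the new peaks so assigned were at such genes (71.2%). Conversely, 60.1% of genes with a 24 h peak gained a new one, against 19.2% of genes without. In all 171 genes had 5 or more new peaks. Most new peaks were at NAV2 (13), RBMS3 (12), DDAH1, PHLDB2, PTPN1 and PDGFC (10 each), and MRTFA, EFNA5, SLC1A3 and EXT1 (9 each). NAV2, DDAH1, PHLDB2 and SLC1A3 had no 24 h peak assigned to them by this rule. A 24 h peak in an intron of DDAH1 (10.6, and 13.8 at 48 h) was assigned to BCL10. PHLDB2 anchors microtubules at focal adhesions, PDGFC is a growth factor, and MRTFA is the actin-regulated partner of SRF. Long genes and gene deserts collect more peaks by this rule.

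Gene lists were read against the background of all protein-coding genes, of which 7.65% had a new peak within 3 kb of a TSS, 1.93% had a kept peak and 2.55% a 24 h peak. Within 100 kb, 51.6% of genes had a new peak. Since the lists were chosen with earlier results of these data known, their counts are descriptions.

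Of the 22 genes of a YAP/TAZ target signature, 10 had a new peak within 3 kb (45.5%), 9 a kept peak (40.9%) and 21 a new peak within 100 kb (95.5%). In 5 of the 10 the new peak came without a kept one. ANKRD1 had 5.22 without Dox, no call at 24 h, 19.2 at 48 h and 31 at 72 h at its promoter. NT5E, the ecto-enzyme CD73, had 10.8 at 48 h and 9.64 at 72 h. CRIM1 (6.71 and 24.6), GADD45A (6.48 and 7.91) and RBMS3 (4.08 and 6.37) completed the 5. The other 5 added a new peak that was weaker than the highest kept peak of the gene. CCN1 had 2 kept peaks, with 8.3 at 24 h and 16.4 at 48 h in one and 9.09 and 11.5 in the other, and a new one of 13.8. AMOTL2, which binds and retains YAP and TAZ in the cytoplasm, had 14.2 and 21.8 at the higher of its kept peaks and a new peak of 7.04. CCDC80 (10.9, 25.5, new 8.79), PTPN14 (15.9, 15.4, new 5.56) and ASAP1 (5.74, 13.9, new 4.54) were the rest. CCN2 (16.8 and 19.9), LATS2 (17 and 19.2), AXL (10 and 12.8) and ARHGEF17 (14 and 16.8) kept their peak and added none within 3 kb. MYOF, F3, IGFBP3, FJX1, DOCK5, NUAK2 and TGFB2 had no peak within 3 kb at 24 h or 48 h and one at 72 h, with fold enrichment of 4.13 to 10, and FOXF2 had none in any list.

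Of 10 TEAD factors and cofactors, 4 had a new peak within 3 kb (40%). WWTR1, the gene of TAZ itself, had a new peak of 7.23 at 48 h, 320 bp from a TSS, and 11.9 at 72 h. VGLL3 and VGLL4, cofactors that compete with YAP and TAZ for TEAD, had 8.52 and 6.96 at 48 h, VGLL4 also having 8.01 without Dox. TEAD3 had 4.05. YAP1 had no peak within 3 kb at 24 h or 48 h and 17.7 at 72 h. Of the 12 AP-1 genes, JUN (6.86) and FOSL2 (5.34) had a new peak within 3 kb and none had a 24 h peak. FOSL2 also had a peak of 3.43 within 3 kb without Dox. Of the 25 Hippo kinase, adaptor and feedback genes, 9 had a 24 h peak that was kept (36%), 4 a new one (16%) and 19 a new one within 100 kb (76%). AJUBA had 20.2 at 24 h and 31.5 at 48 h at the highest of its 3 kept peaks, and WTIP, which like AJUBA encodes a LIM protein that binds LATS kinases, had 25.2 and 22.7.

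**Figure D5:**
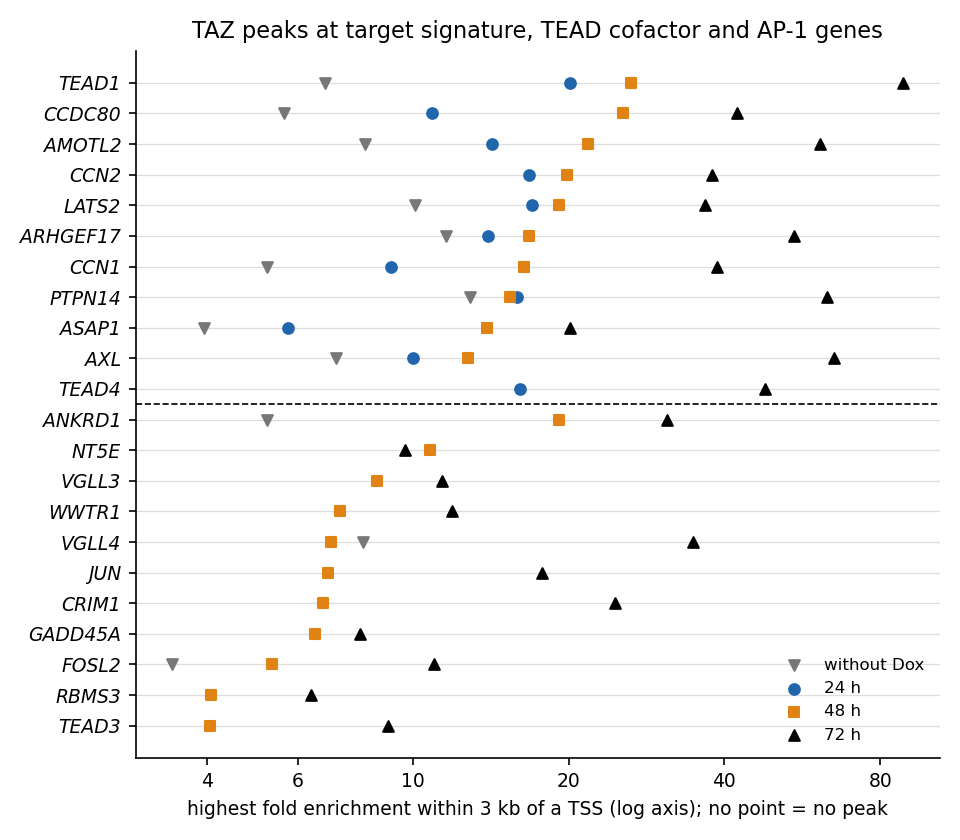
Highest fold enrichment (log axis) of a TAZ peak within 3 kb of a TSS in cells without Dox and at each of the 3 times on Dox, for the target signature, TEAD cofactor and AP-1 genes with a peak there at 24 h or 48 h. No point means no peak. Genes above the dashed line had a 24 h peak, and of these TEAD4 alone has no 48 h point; genes below it had none, and ANKRD1 is the highest of them at 48 h with 19.2.

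In the next 3 lists no gene had a 24 h peak within 3 kb, which in lists of this size is near the 2.55% of all genes. Of 20 genes of epithelial-mesenchymal transition none had a 24 h peak within 3 kb and 6 had a new one (30%), among them CDH2, the mesenchymal N-cadherin (7.26), TGFBI (6.16) and FN1, the matrix protein fibronectin (5.93). Of 18 TGF-beta and SMAD genes none had a 24 h peak and 6 had a new one (33.3%), including TGFB1 (8.07), SMAD3 (5.68), SMURF2 (5.43) and SMAD4 (5.39). Of 25 NF-kB and TNF genes none had a 24 h peak and 5 had a new one (20%), including IL1A (7.45) and TRAF3 (7.12). Of 22 actin and SRF target genes 5 had a kept peak (22.7%) and 9 a new one (40.9%). The actin crosslinker ACTN4 had a kept peak of 9.79 at 24 h and 16.9 at 48 h, tropomyosin TPM1 7.08 and 15.5, the formin DIAPH3 8.48 and 13.3, and the myosin MYH9 8.16 and 11.8 at the higher of its 2 kept peaks. ACTN1, named after its values had been seen, had 6.25 without Dox, no call at 24 h, and 5 new peaks at 48 h of up to 10.5.

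Of 18 integrin and matrix receptor genes 4 had a kept and 6 a new peak (33.3%). ITGB2 was the strongest kept, with 17.4 in cells without Dox and 21.6, 40.2 and 73.6 at the successive times, and PLEC, which encodes the cytoskeletal linker plectin, had a kept peak of 6.4 and 9.58 and a new one of 7.68. Of 18 RUNX, STAT and ETS genes 6 had a new peak, including ETV4 (6.99) and ETS1 (6.62). Of 29 cell cycle genes 4 had a new peak (13.8%), led by CCND3 (10.8), and CCND1, which encodes cyclin D1, had a kept peak of 6.51 at 24 h and 11 at 48 h. New peaks were at 3 of 16 complement genes (C3 4.58, CD55 3.28, CD59 6.05) and at 2 of 18 amino acid synthesis genes (BCAT1 8.59, MTHFD2 5.87). Of 20 epithelial junction genes 3 had a new peak, and CDH1, which encodes E-cadherin, had kept peaks of up to 6.21 at 24 h and 20.9 at 48 h. Of 19 EGFR ligand and MAPK feedback genes 2 had a new peak, DUSP6 (6.81) and SPRY4 (3.38). Without Dox, ETV4 (6.86), MTHFD2 (6.77) and DUSP6 (7.05) also had a peak within 3 kb, so the 24 h list alone lacked one there.

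The labelled cell type was read from binding near marker genes, which is no measure of expression. Basal and luminal mammary markers each had 3 of 11 genes with a new peak within 3 kb (27.3%), ACTA2, CDH3 and SFN on the one side and KRT8, KRT18 and KRT19 on the other, and KRT5 and MUC1 had a kept peak. Within 3 kb none of the 15 liver, 13 neuron and 13 blood markers had a new peak, where 7.65% of all protein-coding genes had one. FGB was the only one of these markers with a kept peak there (7.44 at 24 h, 6.82 at 48 h). Within 100 kb new peaks were at 6 liver (40%), 5 neuron (38.5%) and 3 blood markers (23.1%), against 51.6% of all genes.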

How the data were processed

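Anti-TAZ ChIP-seq was carried out on MCF10A cells with inducible TAZ-4SA (paired-end reads), with 1 TAZ library per condition. The authors trimmed the reads, mapped them to hg38 with BWA and called peaks with MACS2 per condition at an FDR of 0.01. Software versions, and whether the IgG libraries served as control, were not given in the sources used here. The deposited lists give fold enrichment, a ratio of summit pileup to local background with a pseudocount of 1, and −log10 p and q. Read totals are unknown. Background coverage was solved from the deposited fold enrichment and −log10 p of each peak, and the solved −log10 p matched within 0.003.

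Peaks were classed by an overlap of at least 1 bp, annotated with GENCODE version 44 on hg38, and given to the protein-coding gene of nearest TSS. Motifs were searched as exact letters on both strands within 100 bp of each summit. With 1 library per time no test was made, and peaks are not replicates of a time. Shares have exact Clopper-Pearson 95% intervals and medians exact order-statistic intervals, which cover counting error only. Scripts (python 3.11.15, numpy 2.4.6, pandas 2.3.3, scipy 1.17.1) were tested on simulated data.

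Members and gene lists were chosen with earlier results of these data known. Named were all signature, TEAD and AP-1 genes, up to 4 genes of each other list by fold enrichment within 3 kb, the strongest new peaks and peaks not called again, the highest and lowest ratios, and the genes or sites with most new peaks. Genes named outside this rule are marked. Alternatives were other overlap rules, a stricter q, scaling to the 24 h coverage, other promoter and motif definitions, and chromosomes 1 to 22 and X alone. IgG libraries were not analysed here. A few items that the rule names are not reported here.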

Additional observations from a re-analysis of the deposited data

How the results depend on the processing

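Under the alternatives 99 values from 16 results were compared with the main ones. Of these, 67 stayed within the interval of a share or within 1.5 times for counts and ratios, and 32 moved further. A change of direction was defined only for the ratios of fold enrichment, and none of these crossed 1. Asking for 50% of both intervals to overlap left 1296 24 h peaks without a partner, where the median width was 412 bp for kept 24 h peaks and 876 bp for kept 48 h peaks. It gave 28.9% promoters in kept peaks, 16.9% of new peaks within 10 kb, TEAD in 40.4% of new peaks, 64.7% of new peaks called at 72 h, and 16.9% of kept peaks called without Dox. Summits within 200 bp gave 291 peaks not called again, 8.15% within 10 kb, 85.3% at 72 h and 2.72% of new peaks without Dox. A −log10 q of at least 5 gave 24.9% promoters in new peaks, 6.79% within 10 kb, TEAD in 40.2% and 95.6% at 72 h. Scaling to the 24 h coverage gave 24.4% promoters, TEAD in 41% and 96.1% at 72 h. Promoters of 1 kb held 13.3% of new and 13.6% of kept peaks, and those of protein-coding genes alone 16.9% and 16.7%. With protein-coding genes alone the share was thus slightly higher in new peaks, whereas the main shares were 25.8% of new and 26.9% of kept peaks. Within 50 bp of the summit TEAD was in 30.1% of new and 43.9% of kept peaks and AP-1 in 11.9% and 11.5%, and within 200 bp 45.3%, 60.4%, 26.6% and 24.2%. The 6-letter core was in 47.8% and 61.4%. Within 100 kb 21 signature genes had a new peak. The cause of these differences was not tested beyond the definitions themselves. No paired analysis was possible because each time had 1 TAZ library and the labels give no replicate numbers, and for that reason no library could be left out.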
